A study of Mus musculus with 23 samples.

Results

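The 959 intervals described here were the H3K9me3 intervals under 2000 bp wide in the most crowded 1-Mb windows of the mouse genome. Chromosomes 1 to 19 and X were split into 1-Mb windows, and the 20 windows in which 40 or more H3K9me3 intervals had their midpoint were kept. These windows held 1156 intervals, of which 959 were under 2000 bp and 197 were wider. They made up 0.757% of 2641 windows and held 7.15% of the 16161 H3K9me3 intervals on these chromosomes (16738 on every sequence). The members were thus chosen by the count of intervals per window and by width, and both are given as description only.

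The intervals came from CUT&Tag, where a transposase tethered to an antibody inserts sequencing adapters into nearby DNA. The cells were CD4 naive T cells of spleen and lymph nodes (pLN in the labels), from WT mice and from mice labelled DDX55 KO, that is, knockout for the DEAD-box RNA helicase DDX55. H3K9me3, RNA polymerase II (PolII) and DDX55 were each profiled in 2 WT and 2 DDX55 KO samples without treatment. R-loops, hybrids of RNA and DNA, were profiled with the S9.6 antibody in 4 WT and 4 DDX55 KO samples, and 2 of each genotype received 20 U of RNase H, an enzyme that removes such RNA. The samples of both genotypes, and those with and without RNase H, named the same merged list of positions, so no comparison of genotypes, of RNase H or of replicates could be made. The lists hold no height, score or count, the depth is unknown, and an interval could rest on samples of either genotype. The age and sex of the mice, the cells in which DDX55 was deleted, and whether animals were pooled are not stated in the labels.

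Trimethylation of lysine 9 of histone H3 (H3K9me3) marks silent heterochromatin. In mouse cells the mark is written by enzymes such as SETDB1 and the SUV39H pair and is bound by HP1 proteins. KRAB zinc finger proteins bind retrotransposons and other repeats and recruit TRIM28 with SETDB1 to them, and H3K9me3 is also known over the clustered zinc finger genes themselves. Many other mouse gene families grew by tandem duplication, among them pheromone receptors, major urinary proteins and genes used in germ cells, which are known for expression outside T cells. No table of repeats was used here, so the share of members on retrotransposons was not analysed.

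Promoter sequences show how alike the copies in these windows were, and where members lay on them. Each line is a RefSeq promoter window of GRCm38.p6 (the coordinates of mm10) that runs from 250 bases before to 50 bases after an annotated gene start, read 5′ to 3′ on the strand of the gene. Capitals mark bases inside a member. The first pair comes from neighbouring zinc finger windows: Zfp979 (chr4:147642459-147642758, minus strand) had 135 of 300 bases in a 768-bp member, whereas Zfp600 (chr4:146156577-146156876, plus strand) had none, although the sequences were 94.7% identical with 16 edits between them. Zfp988 (chr4:147305354-147305653, plus strand), 76.7% identical to Zfp600, had 114 bases in a 927-bp member.
Zfp979: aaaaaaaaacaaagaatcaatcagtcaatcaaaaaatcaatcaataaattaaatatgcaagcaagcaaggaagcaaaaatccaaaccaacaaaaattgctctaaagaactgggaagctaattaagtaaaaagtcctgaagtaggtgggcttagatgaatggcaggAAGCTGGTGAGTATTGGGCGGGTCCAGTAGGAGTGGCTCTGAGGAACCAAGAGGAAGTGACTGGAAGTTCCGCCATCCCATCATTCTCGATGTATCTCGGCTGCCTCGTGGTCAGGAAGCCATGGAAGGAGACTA
Zfp600: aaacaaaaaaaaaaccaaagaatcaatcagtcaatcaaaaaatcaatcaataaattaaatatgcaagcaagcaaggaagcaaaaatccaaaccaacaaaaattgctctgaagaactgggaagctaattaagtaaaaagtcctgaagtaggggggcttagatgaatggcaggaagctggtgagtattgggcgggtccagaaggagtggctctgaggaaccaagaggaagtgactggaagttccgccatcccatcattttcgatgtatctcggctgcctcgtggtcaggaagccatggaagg
Zfp988: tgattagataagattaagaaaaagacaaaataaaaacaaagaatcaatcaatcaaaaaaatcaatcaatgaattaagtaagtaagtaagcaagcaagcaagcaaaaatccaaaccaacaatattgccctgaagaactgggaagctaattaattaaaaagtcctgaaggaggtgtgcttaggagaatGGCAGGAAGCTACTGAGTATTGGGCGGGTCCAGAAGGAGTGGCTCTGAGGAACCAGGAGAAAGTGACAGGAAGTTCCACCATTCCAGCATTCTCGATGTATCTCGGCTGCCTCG
In Zfp979 and Zfp988 the capitals ran through the gene start to the end of the window.

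A pair of vomeronasal receptor genes was alike over nearly the whole promoter. Vmn1r149 (chr7:22438180-22438479, minus strand) lay entirely in a 1413-bp member and Vmn1r253 (chr7:22329668-22329967, minus strand) lay in none, with 3 edits between the 300-base windows (99.0% identity).
Vmn1r149: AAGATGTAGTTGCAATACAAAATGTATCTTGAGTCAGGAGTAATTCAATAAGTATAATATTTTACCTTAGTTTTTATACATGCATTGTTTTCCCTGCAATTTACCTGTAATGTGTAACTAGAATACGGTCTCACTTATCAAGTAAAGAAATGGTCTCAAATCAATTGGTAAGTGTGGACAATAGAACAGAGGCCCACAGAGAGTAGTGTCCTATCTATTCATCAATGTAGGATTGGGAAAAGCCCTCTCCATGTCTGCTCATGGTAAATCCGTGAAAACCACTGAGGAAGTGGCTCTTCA
Vmn1r253: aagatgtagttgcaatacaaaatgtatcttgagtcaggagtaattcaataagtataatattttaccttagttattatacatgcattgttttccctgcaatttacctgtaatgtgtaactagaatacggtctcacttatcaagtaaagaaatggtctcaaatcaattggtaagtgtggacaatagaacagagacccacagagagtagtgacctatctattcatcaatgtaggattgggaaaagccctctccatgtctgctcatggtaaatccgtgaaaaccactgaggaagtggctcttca
Copies this similar share short reads, and the treatment of reads with several matches is not stated in the labels. The presence of an interval on 1 copy and its absence on the other is therefore uncertain.

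CpG-rich promoters were also covered. Gm3973 (chr12:19489970-19490269, plus strand, 294 bases in a 940-bp member) and Gm38699 (chr12:23800906-23801205, minus strand, 300 bases in a 1335-bp member) lie in different windows of chromosome 12 and were 90.3% identical. They held 32 and 33 CpG dinucleotides. Sp110, which encodes a nuclear body protein of immune cells, had an annotated start (chr1:85598761-85599060, minus strand) inside a 1741-bp member with 5 CpG.
Gm3973: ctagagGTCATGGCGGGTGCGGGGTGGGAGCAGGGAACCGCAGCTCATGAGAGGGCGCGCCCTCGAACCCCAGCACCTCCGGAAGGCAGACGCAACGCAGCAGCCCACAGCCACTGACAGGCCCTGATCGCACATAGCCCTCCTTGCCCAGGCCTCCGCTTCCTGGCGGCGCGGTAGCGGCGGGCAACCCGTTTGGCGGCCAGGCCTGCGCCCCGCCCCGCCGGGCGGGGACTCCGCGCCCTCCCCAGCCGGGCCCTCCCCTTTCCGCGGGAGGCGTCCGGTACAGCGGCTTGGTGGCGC
Gm38699: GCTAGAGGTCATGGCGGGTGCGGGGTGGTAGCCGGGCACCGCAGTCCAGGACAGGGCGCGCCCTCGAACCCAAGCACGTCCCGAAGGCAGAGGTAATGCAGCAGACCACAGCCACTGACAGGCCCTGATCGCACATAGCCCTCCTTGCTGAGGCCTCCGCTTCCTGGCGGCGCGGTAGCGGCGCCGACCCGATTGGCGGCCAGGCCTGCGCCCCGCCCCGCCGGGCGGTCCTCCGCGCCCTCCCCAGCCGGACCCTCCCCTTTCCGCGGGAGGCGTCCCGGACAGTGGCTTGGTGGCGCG
Sp110: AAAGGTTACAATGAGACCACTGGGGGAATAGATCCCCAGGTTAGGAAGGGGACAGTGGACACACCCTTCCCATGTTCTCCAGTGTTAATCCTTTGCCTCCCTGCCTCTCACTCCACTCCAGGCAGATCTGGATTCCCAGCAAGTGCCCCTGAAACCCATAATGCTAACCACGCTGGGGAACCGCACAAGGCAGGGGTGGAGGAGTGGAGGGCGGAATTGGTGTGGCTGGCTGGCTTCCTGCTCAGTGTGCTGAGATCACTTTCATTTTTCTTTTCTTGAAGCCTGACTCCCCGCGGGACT
The 1741-bp Sp110 member, chr1:85598668-85600408, was the only member that shared bases with a PolII interval, at the end next to the Sp140 promoter window. Another annotated Sp110 start lay outside it.

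The 20 windows lay on 8 chromosomes and formed 14 groups of touching windows. Each is called here by a gene or family in it (the leading gene in the figure labels), which did not always meet most members. Chromosome 4 held 5 windows with 246 members, chromosome 12 held 4 with 244, chromosome 14 held 4 with 186 and chromosome 7 held 3 with 119. Chromosomes 1, 5, 3 and 17 held 1 window each, with 62, 38, 35 and 29 members. The count of intervals ran from 40 in the Hnf4g window (chromosome 3) to 95 in the Zfp988 window (chromosome 4), against a median of 5 over the 1854 windows with any interval. Just outside the threshold, 4 windows held 38 intervals (on chromosomes 13, 5, 7 and 8) and another on chromosome 3 held 37. Just inside it were the Hnf4g window with 40 and the Gm10410, Gm21154 and Smok2b windows with 43 each.

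**Figure D1:**
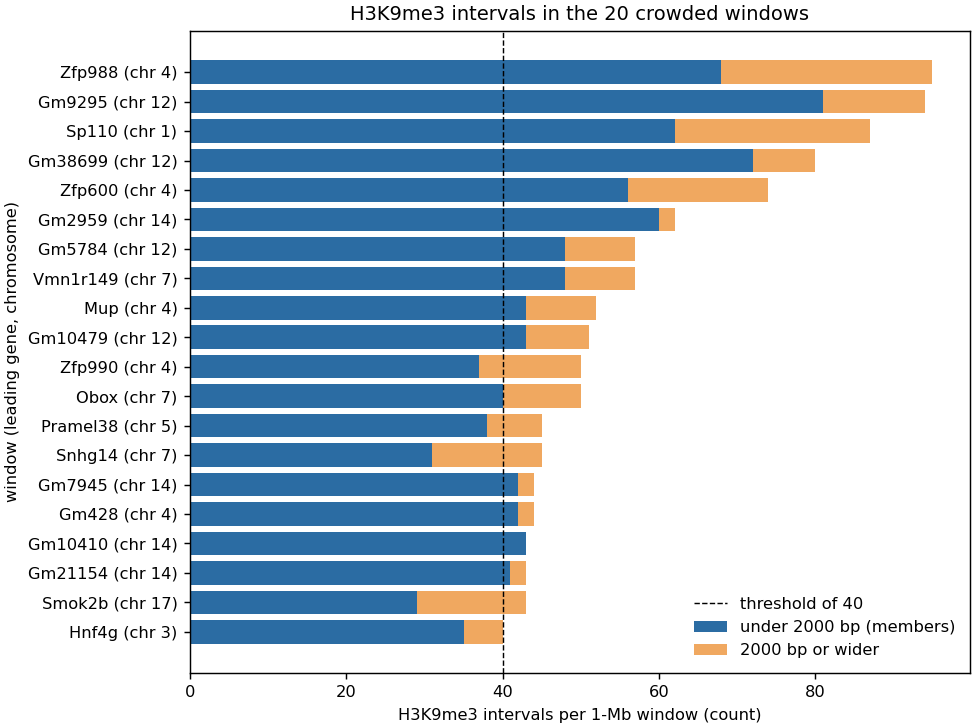
H3K9me3 intervals per crowded window: the horizontal axis counts intervals, blue bars are members under 2000 bp, orange bars are wider intervals, and the dashed line is the threshold of 40. The Zfp988 and Gm9295 windows reach 95 and 94, and the Gm10410 window has no orange bar.

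The crowded stretches had sharp edges in several places. The next window beyond the Zfp988, Sp110 and Obox windows held 0 H3K9me3 intervals, and the windows on both sides of the Smok2b window held 1 each. Other edges were gradual: the window before the Gm5784 window held 34 intervals, and those beside the Pramel38 window held 24 and 23. Within windows the median gap between neighbouring intervals ran from 4.37 kb in the Sp110 window to 17.4 kb in the Gm10410 window. The Sp110 window also held the longest run with gaps of at most 10 kb, 35 intervals over 205 kb.

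**Figure D2:**
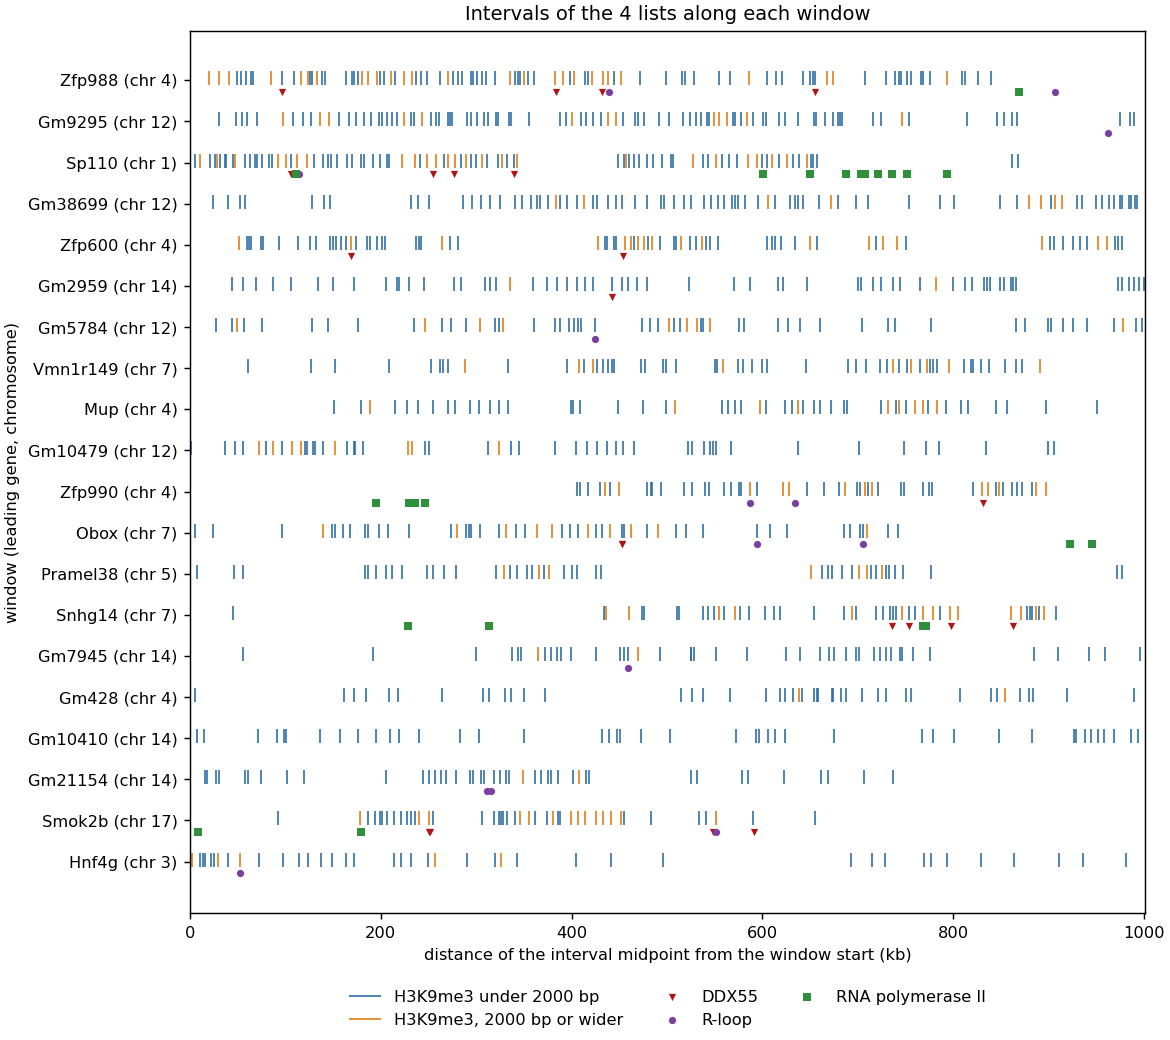
Position of every interval in the 20 windows: the horizontal axis is the distance in kb of the interval midpoint from the window start, blue and orange ticks are H3K9me3 intervals under and from 2000 bp, and symbols are DDX55, R-loop and PolII intervals. Most of the green PolII squares stand away from the ticks, whereas the red DDX55 triangles stand under them.

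Members were 183 to 1975 bp wide with a median of 693 bp (quartiles 437 and 1214 bp), and covered 810.1 kb. The 14479 intervals under 2000 bp elsewhere had a median of 580 bp (quartiles 398 and 925 bp). The narrowest interval left out by the width limit was 2020 bp and the widest 7155 bp, in the Sp110 window. Intervals of 2000 bp or more were 17.0% of those in the windows and 3.51% of the 15005 outside, and these 197 covered another 575.1 kb. Width was part of the rule and was not tested.

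**Figure D3:**
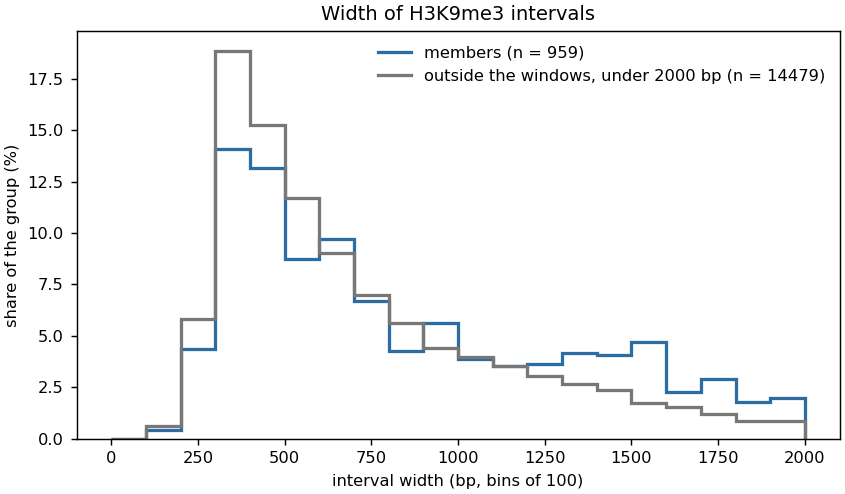
Width of H3K9me3 intervals under 2000 bp: the horizontal axis is width in bins of 100 bp and the vertical axis the share of each group in percent, for the 959 members (blue) and the 14479 intervals outside the windows (grey). Both peak at 300 to 400 bp, with 14.1% of members and 18.9% of the others there, and the blue line is higher above 1200 bp.

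Genes were near a larger share of members than of other H3K9me3 intervals. Of 959 members, 382 (39.8%, exact Clopper-Pearson 95% interval 36.7 to 43.0) were in or within 3000 bp of a protein-coding gene, where the share over all H3K9me3 intervals was 20.6%. Among intervals under 2000 bp outside the windows it was 18.8% (18.2 to 19.5). Such places made up less of the crowded windows (35.8% of their bases) than of all windows (42.6%). The share of members was thus near the share of bases in their windows, while that of the intervals outside was below the share of bases in all windows. Single windows differed in both directions. The share of members was 47.6% against 22.7% of bases in the Gm428 window, and 7.5% against 20.0% in the Obox window. By midpoint, 34.0% of members were in a protein-coding gene, 8.76% in a pseudogene, 7.51% in another gene and 49.7% between genes, against 17.2%, 3.05%, 5.39% and 74.4% of those same intervals. The intervals cover counting error only, and members of 1 window are not independent. The share depended on the threshold: with 30 or more intervals per window it was 21.5%.

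**Figure D4:**
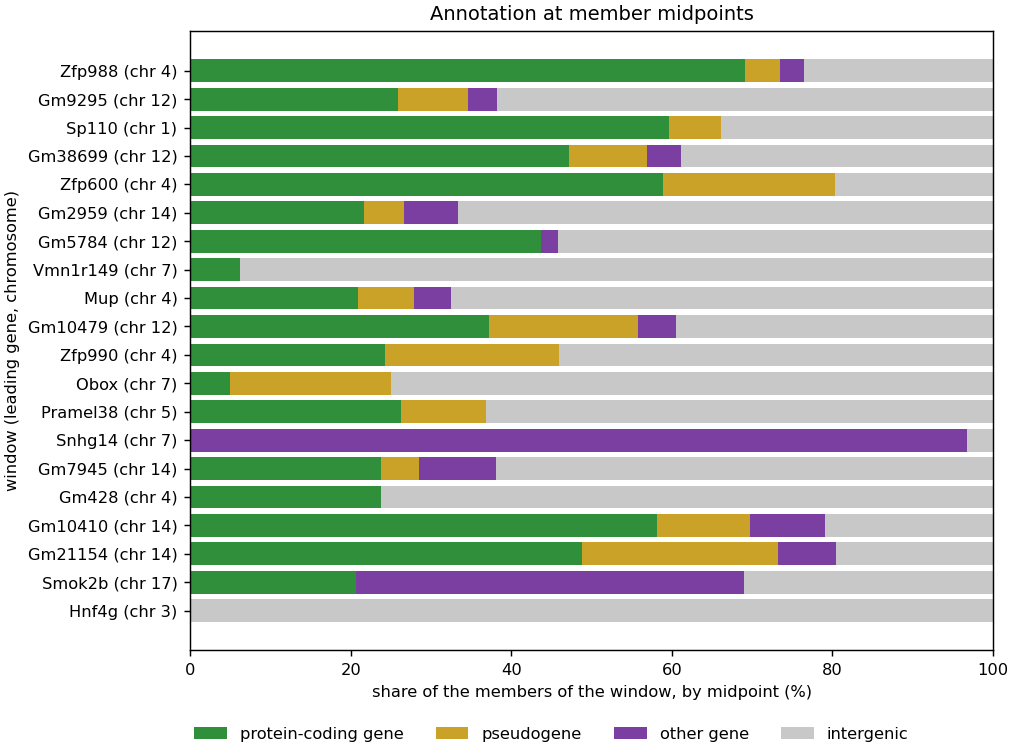
Annotation at the midpoint of members, by window: the horizontal axis is the share of the members of each window in percent, and colours are protein-coding gene, pseudogene, other gene and intergenic. The Hnf4g window is 100% intergenic and the Snhg14 window 3.23%.

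Of the 217 protein-coding genes that reached into the windows, 116 (53.5%) had a member in or within 3000 bp. The share over all 21631 protein-coding genes, counting any H3K9me3 interval under 2000 bp, was 6.11%. This count follows from the choice of crowded windows, and nothing is read from it. Overlapping gene models share members, so the genes are not separate observations.

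The 3 touching zinc finger windows of chromosome 4 (Zfp990, Zfp600 and Zfp988) held 219 intervals, of which 161 were members and 58 (26.5%) were wider. Of these members 99 (61.5%) were in or near a protein-coding gene, close to the share of bases in such places there (59.7%). Without these windows, 283 of 798 members (35.5%) were in or near such a gene. The zinc finger family had 17 genes here, of which 16 had a member inside the gene. Zfp534 was the exception: its only interval was wide, and covered 5.12% of the gene. These genes encode DNA-binding proteins of the tandem zinc finger type.

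H3K9me3 intervals covered 4.43% to 40.2% of the length of these 17 genes, with a median of 9.99%. Zfp979 had the lowest cover, with 3 intervals over 30.6 kb. Zfp992 had the highest, with 4 intervals over 20.4 kb, of which 1 was a member. Zfp978 (267.1 kb) met most members, 29, and 41 intervals in all covered 23.2% of it. Zfp993 (478.6 kb) met 22 members, and 31 intervals covered 8.71% of it. The Zfp978 model spans Zfp991 and Zfp988, and the Zfp993 model overlaps Zfp981 and Rex2 in part, so some members count for several genes. In Zfp600, 7 intervals covered 20.3% of 41.9 kb, and Zfp984 and Zfp991 held 6 members each.

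Neither end of the zinc finger genes held intervals throughout. Here the start and end are the outer edges of the gene record, which can differ from the annotated starts of the promoter windows. Of the 13 genes with a known strand, 7 had an interval within 1000 bp of the start and 6 within 1000 bp of the end. The edge of Zfp981, for example, was 4707 bp from an interval, but its promoter window lay wholly in a 2737-bp interval. Members were within 1000 bp of the start in 6 and of the end in 3. By these edges the Zfp988, Zfp979 and Zfp984 starts lay inside a member, while Zfp933 had its nearest interval 9687 bp from the start. Records of vomeronasal type 2 receptor pseudogenes overlap these genes. Vmn2r-ps17 spans Zfp600 and had 16 members in or near it, and Vmn2r-ps16 spans Zfp992 and Zfp981 and had 13. Some of these members were thus also counted for the zinc finger genes.

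**Figure D5:**
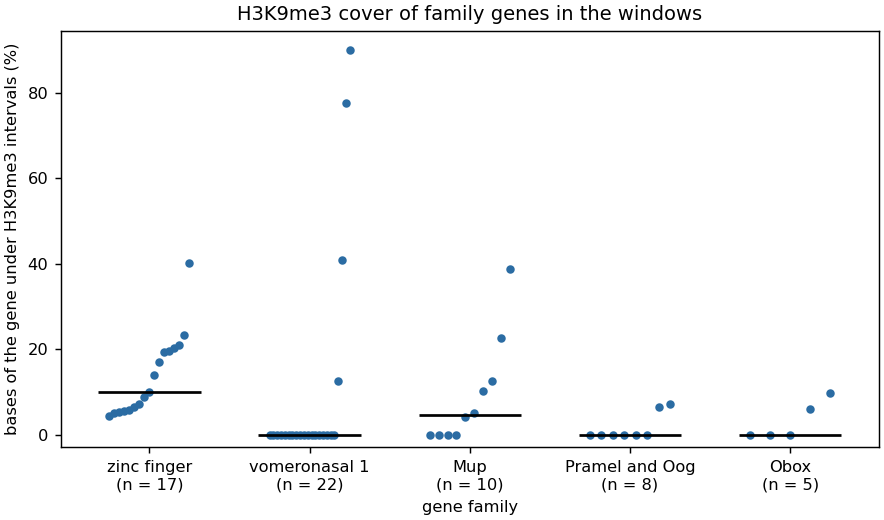
Share of each gene under H3K9me3 intervals of any width, by family: the vertical axis is percent of gene length, each point is a gene (annotated as protein-coding) and lines are medians. Every zinc finger gene is above 0, with a median of 9.99%, while 18 of 22 vomeronasal 1 receptor genes are at 0.

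The Vmn1r149 window of chromosome 7 held 22 protein-coding vomeronasal 1 receptor genes, which encode pheromone receptors of the vomeronasal organ. Its 57 intervals lay mostly between these short genes: 45 of 48 members (93.8%) were intergenic. In or within 3000 bp of a protein-coding gene were 10 of the 48 (20.8%), close to the share of bases in such places there (21.1%). Only 4 of the 22 genes met an interval, in each case a member. These were Vmn1r160 with 89.9% of its length covered, Vmn1r151 with 77.6%, Vmn1r149 with 40.8% and Vmn1r148 with 12.5%. From the start edge of the gene record to the nearest interval the median distance was 6.97 kb, against 0.537 kb for the zinc finger genes. The vomeronasal 1 genes were at most 2.44 kb long and the zinc finger genes at least 20.4 kb, and the part of length in these counts was not tested.

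The Mup window of chromosome 4 held 10 protein-coding Mup genes, whose products carry pheromones in urine. A member interval lay in 6 of the 10 genes, and 43 lay in the window. Mup13 had the highest cover, 38.7% of 3.94 kb, followed by Mup18 with 22.5% and Mup14 with 12.4%. Mup15, Mup16, Mup17 and Mup19 had no interval, although the start edges of the Mup17 and Mup19 records were 78 and 38 bp from a wide interval. Mup-ps12 (97.9 kb) held 3 members.

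Genes used in oocytes and early embryos led another 2 windows. The Obox window of chromosome 7 (oocyte-specific homeobox genes) held 35 Obox genes and pseudogenes, of which 17 had a member in or within 3000 bp. Only 5 of the 35 were annotated as protein-coding, and members lay in Obox2 (2) and Obox3 (1) but not in Obox1, Obox5 or Obox6. Its intervals ended 742.7 kb into the window. The Pramel38 window of chromosome 5 held 8 Pramel genes. Members lay in Pramel38 (6 members, 7.21% covered) and Pramel41 (3 members, 6.55%), and the other 6 genes held no interval.

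The Sp110 window of chromosome 1 held 87 intervals, of which 62 were members and 25 were wider, and 139.8 kb or 14.0% of it was covered. It contains the Sp100, Sp110 and Sp140 genes, which encode nuclear body proteins, and each of the 3 had a member in or within 3000 bp. Sp140 held 5. The predicted genes Gm38510 (153.8 kb) and Gm7592 (228.9 kb) held 14 each. Gm7609 and A530040E14Rik each had a promoter window wholly inside a member, of 1215 and 976 bp.

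The Snhg14 window of chromosome 7 lies in the imprinted region known from Prader-Willi syndrome. Snhg14 is a long noncoding RNA gene of 1177 kb that hosts small nucleolar RNAs, and 206 small nucleolar RNA genes lay in the window. Of 31 members 30 lay in Snhg14, and 14 wider intervals brought the total to 45. All the protein-coding genes there, 3 in number, were without a member. The members began 44.4 kb into the window, followed by a gap of 389.0 kb, and the rest lay between that gap and 908.2 kb.

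Windows of chromosomes 12 and 14 were led by predicted genes. The 4 windows of chromosome 12 (Gm5784, Gm10479, Gm9295 and Gm38699) held 282 intervals and 244 members. Gm40862 met most members there, with 27 in or within 3000 bp, and Gm40864 met 10. The Gm9295 window was the second most crowded of all, with 94 intervals, and its median member was 869 bp wide. The 4 windows of chromosome 14 held 192 intervals, and only 6 (3.13%) of these were wide. The Gm10410 window had none, its widest interval being 1959 bp. Gm21154 met 10 members, Gm10410 and Gm32966 met 8 each, Gm2959 met 7 and Gm7945 met 4. What these predicted genes encode is not named here.

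The other windows each had a character of their own. In the Smok2b window of chromosome 17, which holds sperm motility kinase genes, 17 of 29 members were in or near the long noncoding RNA gene Gm36684. Smok2b met 3 members, and Smok2a and Tcp10c met 2 each. In the Gm428 window of chromosome 4, Rasef, a gene of the RAB GTPase family, held 4 of 42 members, and 32 (76.2%) were intergenic. In or within 3000 bp of a protein-coding gene were 20 of the 42 (47.6%), against 22.7% of bases in such places there. In the Hnf4g window all 35 members were intergenic, and Hnf4g, a nuclear receptor gene and its only protein-coding gene, met none.

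Of the 299 RefSeq promoter windows within the crowded windows, 30 (10.0%, exact 95% interval 6.87 to 14.0) shared bases with a member. Over all 32619 promoter windows of the genome, 0.337% met an H3K9me3 interval under 2000 bp. This follows from the choice of windows as above. The 30 belonged to 26 genes in 14 windows, and 11 lay wholly in a member. They held a median of 5 CpG, against 2 in the 250 promoters of the windows without any interval and 7 over the genome. Promoters with 25 or more CpG were 6 of the 30, 18 of the 250 and 18.6% over the genome. The 6 included Gm5784 (30 CpG), Gm40881 (29, with only 38 bases in a member) and Gm40862 (41 at its most CpG-rich start), all on chromosome 12. Gm40862 also counted through another start, with 25 CpG. Another promoter of at least 90% identity within the windows existed for 100 of the 299 (33.4%) and for 7 of the 30.

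Of 210 DDX55 intervals on these chromosomes, 25 (11.9%) had their midpoint in 8 of the windows, and 24 of the 25 shared bases with an H3K9me3 interval. Of these, 10 met a member and 14 a wide interval. The matching shares of the full DDX55, R-loop and PolII lists were not counted, so these overlaps are not read as particular to the windows. Of the 123 H3K9me3 intervals that met DDX55, 103 lay outside the windows. Seen from the members, 9 of 959 (0.938%, 0.430 to 1.77) met DDX55, against 0.761% of all H3K9me3 intervals, so the share of members was near the background. Of the 197 wide intervals 11 (5.58%, 2.82 to 9.77) did, near the 4.75% (3.10 to 6.94) of the 526 wide intervals outside the windows. Among intervals under 2000 bp outside the windows the share was 0.539% (0.426 to 0.672), within the interval of the members. With intervals of every width counted as members, the share was 1.73%. It was 1.61% with 30 or more intervals per window and 0.467% for members under 1000 bp.

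The 9 members with DDX55 lay in 6 windows, with no more than 2 in any of them. In the Snhg14 window, members of 1743 and 747 bp shared 695 and 436 bp with DDX55 inside Snhg14. There DDX55 had 7 intervals in all, of which 3 lay on a single H3K9me3 interval of 6001 bp (chr7:59765831-59771831). The same 6001-bp interval also met 1 R-loop and 2 PolII intervals. In the Sp110 window the 976-bp member at A530032D15Rik and A530040E14Rik shared 473 bp with a DDX55 interval in A530032D15Rik, and the 696-bp member in Gm7592 and Gm7281 shared 218 bp. The Gm2959 member of 1072 bp shared 329 bp. In the Zfp988 window members of 1960 and 1048 bp, in no annotated gene, shared 378 and 373 bp. An Obox member of 1499 bp met 2 DDX55 intervals. The Smok2b member of 1612 bp, in no annotated gene, shared 557 bp with a DDX55 interval.

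On wide intervals, DDX55 lay in C130026I21Rik and Gm38510 of the Sp110 window, in Zfp600, Zfp992 and Zfp978, in the zinc finger pseudogene Znf41-ps, and in Gm36684 of the Smok2b window. The 1 DDX55 interval without H3K9me3 was in 2700054A10Rik of the Smok2b window, 1900 bp from the nearest. The windows of chromosome 12 held 0 DDX55 intervals and those of chromosome 14 held 1. The DDX55 list also drew on 2 DDX55 KO samples, and which intervals came from WT samples was not given.

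R-loop intervals were few. Of 1465 on these chromosomes, 15 (1.02%) lay in 11 of the windows, and 10 shared bases with H3K9me3, 4 with a member and 6 with a wide interval. Of the members 0.417% (0.114 to 1.06) met an R-loop interval, against 1.62% of all H3K9me3 intervals and 1.53% (1.34 to 1.75) of those under 2000 bp outside the windows. The counting interval of the members lay below both values, for this width limit. It rests on 4 members, 2 of them in the Obox window, and it takes members as independent, which members of the same window are not. No difference is concluded from it. Of the 197 wide intervals in the windows 6 (3.05%, 1.13 to 6.51) met an R-loop interval, against 5.70% (3.88 to 8.04) of the 526 wide intervals outside. With every width counted, the share in the windows was 0.865%. The 4 members were narrow, at 344 and 353 bp in the Obox window, 366 bp in the Gm7945 window and 708 bp in Gm5784. The 366-bp member shared 365 bp with its R-loop interval.

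PolII was listed at a single member. Of 10890 PolII intervals, 23 (0.211%) lay in 6 of the windows, and 18 of the 23 met no H3K9me3 interval. Only 1 member (0.104%, 0.00264 to 0.580) met PolII, against 0.538% of all H3K9me3 intervals and 0.456% (0.353 to 0.580) of those under 2000 bp outside the windows. A share of 1 member is within counting error of the background, and with 30 or more intervals per window it was 0.609%. With every width counted it was 0.346%. Of the wide intervals 3 (1.52%, 0.315 to 4.39) met PolII, against 3.23% (1.89 to 5.12) of those outside. The single member with PolII is the 1741-bp interval over the printed Sp110 start, which shared 103 bp with PolII at its other end. The PolII interval lies in both Sp110 and Sp140 (chr1:85600306-85601385) and covers the Sp140 promoter window (chr1:85600453-85600752), which is outside the member.

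The 18 PolII intervals without H3K9me3 were 0.133 to 209.7 kb from the nearest in the same window, with a median of 88.3 kb. H3K9me3 intervals of adjoining windows were not counted in these distances. Of the 18, 8 lay before the first or after the last H3K9me3 interval of their window. In the Zfp990 window the H3K9me3 intervals began at 405.1 kb, and PolII lay before them at Vps13d and at Tnfrsf1b, a receptor of tumour necrosis factor. In the Zfp988 window PolII lay at Miip and at the retrovirus restriction gene Fv1, 28.9 kb beyond the last H3K9me3 interval. In the Obox window it lay at Selenow and the ribosome assembly gene Nop53, 179.2 and 202.9 kb beyond. In the Sp110 window 10 PolII intervals were listed, and 4 lay in Sp100, the nearest 133 bp from H3K9me3. Ube3a, a ubiquitin ligase gene of the Snhg14 window, had PolII 183.1 kb from H3K9me3.

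Genes of the H3K9 silencing machinery were counted from a list of 20. All 20 on the list were found in the gene table, 0 lay in a window and 0 had an H3K9me3 interval in or within 3000 bp. Over all protein-coding genes 6.44% had an H3K9me3 interval of any width there, so a count of 0 in 20 is near the background. PolII was in or near 14 of them, including Trim28, Suv39h1 and Atrx, against 37% of all protein-coding genes. DDX55 was in or near 1, Cbx5, which encodes an HP1 protein, against 0.421% of all. As a check of the labelled cell type, PolII was looked for at marker genes. It was in or near the T cell receptor complex genes Cd3d, Cd3e and Cd3g and the coreceptor gene Cd4. Cd4 also had DDX55, R-loop and H3K9me3 intervals in or near it. Of 10 markers of other cells, 1 had PolII (Cd79a, a B cell gene). Neither marker list had a gene in the windows.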

How the data were processed

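CUT&Tag lists from CD4 naive T cells of WT and DDX55 KO mice were analysed. The authors deposited merged lists of genomic coordinates, which count as another unit, with no value per interval. Per the submitters' processing notes, MACS3 3.0.0b1, ChIPseeker 1.30.3, Bowtie2 2.5.0, fastp 0.12.4 and SAMtools 1.15.1 were used with the mm10 build. Thresholds, merging, controls and the treatment of reads with several matches are not given in the sources used here. Intervals sharing 1 bp or more were called overlapping. This was computed in Python 3.11.15 (pandas 2.3.3, numpy 2.4.6) and compared with bedtools 2.31.1. Genes and promoters came from RefSeq tables of GRCm38.p6. The gene table holds no exons, so a place is in a gene or not, and 49554 genes were used. Exact Clopper-Pearson 95% intervals of shares came from scipy 1.17.1 and cover counting error only. Coordinates are counted from 1. The overlap code was tested on simulated intervals.

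No test between samples was possible, because the lists hold no values per sample. The members, windows and gene lists were chosen with earlier results of these data known. Named were families with at least 3 genes in a window, the protein-coding genes meeting most members (up to 3 per window, other genes where there are none), genes with DDX55, up to 10 promoters by bases covered, and the zinc finger genes meeting most members. The Obox and Tcp10 families, all 8 printed promoters and any other gene named were chosen after their values were seen. The zinc finger proteins planned for printing were not used here, and the full naive T cell marker list is not reported here. The alternatives were other window starts, thresholds, widths, overlaps and gene distances.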

Additional observations from a re-analysis of the deposited data

How the results depend on the processing

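Of 32 alternative values, 18 were within 1.5 times the main value and 14 were not, or were 0. With 30 or more intervals per window there were 62 crowded windows and 2297 members, and with 50 or more there were 12 windows. The share of members with PolII was 0.609% at 30 or more, and 0% with windows starting at 500000 bp, with members under 1000 bp, and with at least 50% of the member covered. Counting every width, PolII was at 0.346%, R-loop at 0.865% and DDX55 at 1.73%. DDX55 was at 1.61% at 30 or more, 0.467% under 1000 bp, and 0.104% with 50% of the member covered. The share in or near a protein-coding gene was 36.0% with windows starting at 500000 bp, 21.5% at 30 or more intervals, and 35.0% counting only members that overlap the gene. The causes were not tested, apart from the stricter overlap and distance, which by construction keep fewer members. No paired analysis was possible because the lists hold no value per sample and no test was run. Depth is unknown, so how many intervals were missed cannot be told, and near-identical copies limit which copy an interval belongs to.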
